A study of Mus musculus with 32 samples.

Results

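Whole-kidney expression in NZM2410 mice in remission after Ad-BAFF-R-Ig was compared with that in NZB/W mice in late remission after Ad-TACI-Ig and CTLA4Ig. The 6 NZM2410 and 5 NZB/W arrays were chosen by their labels alone, and make up 11 of the 32 kidney arrays of the series. NZB/W and NZM2410 are lupus-prone strains that share ancestry and develop nephritis. Each NZM2410 mouse had been given an adenoviral vector for BAFF-R-Ig, a decoy form of the BAFF receptor that captures BAFF. Each NZB/W mouse of the other group (below, the TACI-Ig kidneys) had been given a vector for TACI-Ig, which binds both BAFF and APRIL, together with CTLA4Ig. The labels give neither an age nor a sex for these mice, and the other 21 kidneys, all NZB/W, serve below only to show a range. Those are 7 kidneys of non-proteinuric mice at 30 weeks of age, 8 in early and 6 in late remission after cyclophosphamide, CTLA4Ig and anti-CD154. Strain, therapy, array distribution and any batch differ together between the groups and cannot be told apart.

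BAFF and APRIL are survival factors of the B cell lineage. BAFF signals to mature B cells through the BAFF receptor, and APRIL helps to sustain antibody-secreting plasma cells through BCMA. CTLA4Ig binds CD80 and CD86 and so keeps CD28 on T cells from receiving its costimulatory signal. In lupus nephritis, immune complexes in the glomerulus engage complement and Fc receptors, leukocytes enter the kidney, and injured tubules lose transporters and express injury proteins such as KIM-1, the product of Havcr1.

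All levels below are log2 RMA values as deposited, and every difference is the NZM2410 mean minus the TACI-Ig mean on that scale, with its standard error (SE). Array medians ran from 7.07 to 7.11 in the TACI-Ig kidneys and from 7.14 to 7.17 in the NZM2410 kidneys. The SD over genes was 1.90 to 1.98 in the first and 2.11 to 2.17 in the second, so NZM2410 arrays were wider. The effect of this width depended on the level of a gene: the median difference was -0.51 for genes below a log2 level of 4 and 0.36 for genes above 12. After quantile normalization, the median of each level bin lay between -0.02 and 0.03. A gene is therefore called held below only if its adjusted p was at most 0.05 with the same sign in both the deposited and the quantile-normalized values.

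**Figure D1:**
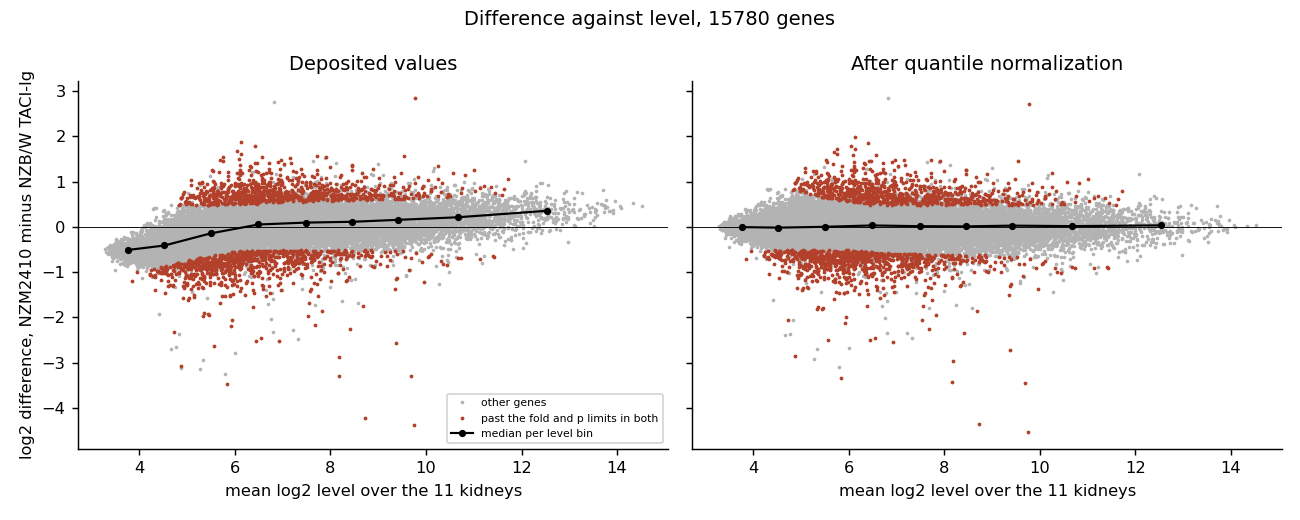
Log2 difference (NZM2410 minus TACI-Ig, vertical axis) against the mean log2 level over the 11 kidneys (horizontal axis) for 15780 genes, in deposited values (left) and after quantile normalization (right). Red points are the 1593 genes past an adjusted p of 0.001 and the fold limits of 1.4 and 0.7 in both, and the black line joins bin medians, which slope from -0.51 to 0.36 on the left and are flat on the right.

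Kidney markers were present in both groups. Umod (uromodulin, loop of Henle) ranged from 13.47 to 13.80 in the TACI-Ig kidneys and from 13.93 to 14.05 (median 13.99) in NZM2410 kidneys, and the proximal tubule phosphate transporter Slc34a1 from 12.13 to 13.30 and from 13.29 to 13.45. Some kidneys stood apart. NZM2410 replicate 3 had a Havcr1 level of 9.43, against 6.69 to 7.25 in the other 5, and the highest level of the MHC class II list. TACI-Ig replicate 2 had the lowest correlation of its group with the mean of the other 4 kidneys (r = 0.9888, others 0.9908 to 0.9935). TACI-Ig replicate 1 had the highest pancreas list level (7.37, others 6.53 to 6.62). Results that rest on one of these are given without it.

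In the deposited values 9388 of 15780 genes passed an adjusted p of 0.05, of which 4513 were higher (28.6% of genes tested) and 4875 lower (30.9%) in NZM2410 kidneys. Quantile normalization gave 3861 higher (24.5%) and 3694 lower (23.4%), and 3182 higher (20.2%) and 3021 lower (19.1%) genes held. At an adjusted p of 0.001 together with a fold of 1.4 or more, or 0.7 or less, in both sets of values, 777 genes were higher (4.92%) and 816 lower (5.17%). The balance of direction depended on scaling: 48.1% of the calls in deposited values were higher, against 38.8% after median centring, which moved the median of all genes to -0.06, and 33.2% after scaling each array to one SD, which moved it to -0.10. Among held genes these shares were 51.3%, 46.6% and 43.6%. Dim genes, the lowest 33.3% by mean level, gave 1384 of the 3021 lower and 589 of the 3182 higher held genes. Thus 1384 of 5260 dim genes held lower and 589 higher, against 1637 and 2593 of the 10520 other genes. Counts of a list made up mostly of dim or mostly of other genes are to be read beside these.

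**Figure D2:**
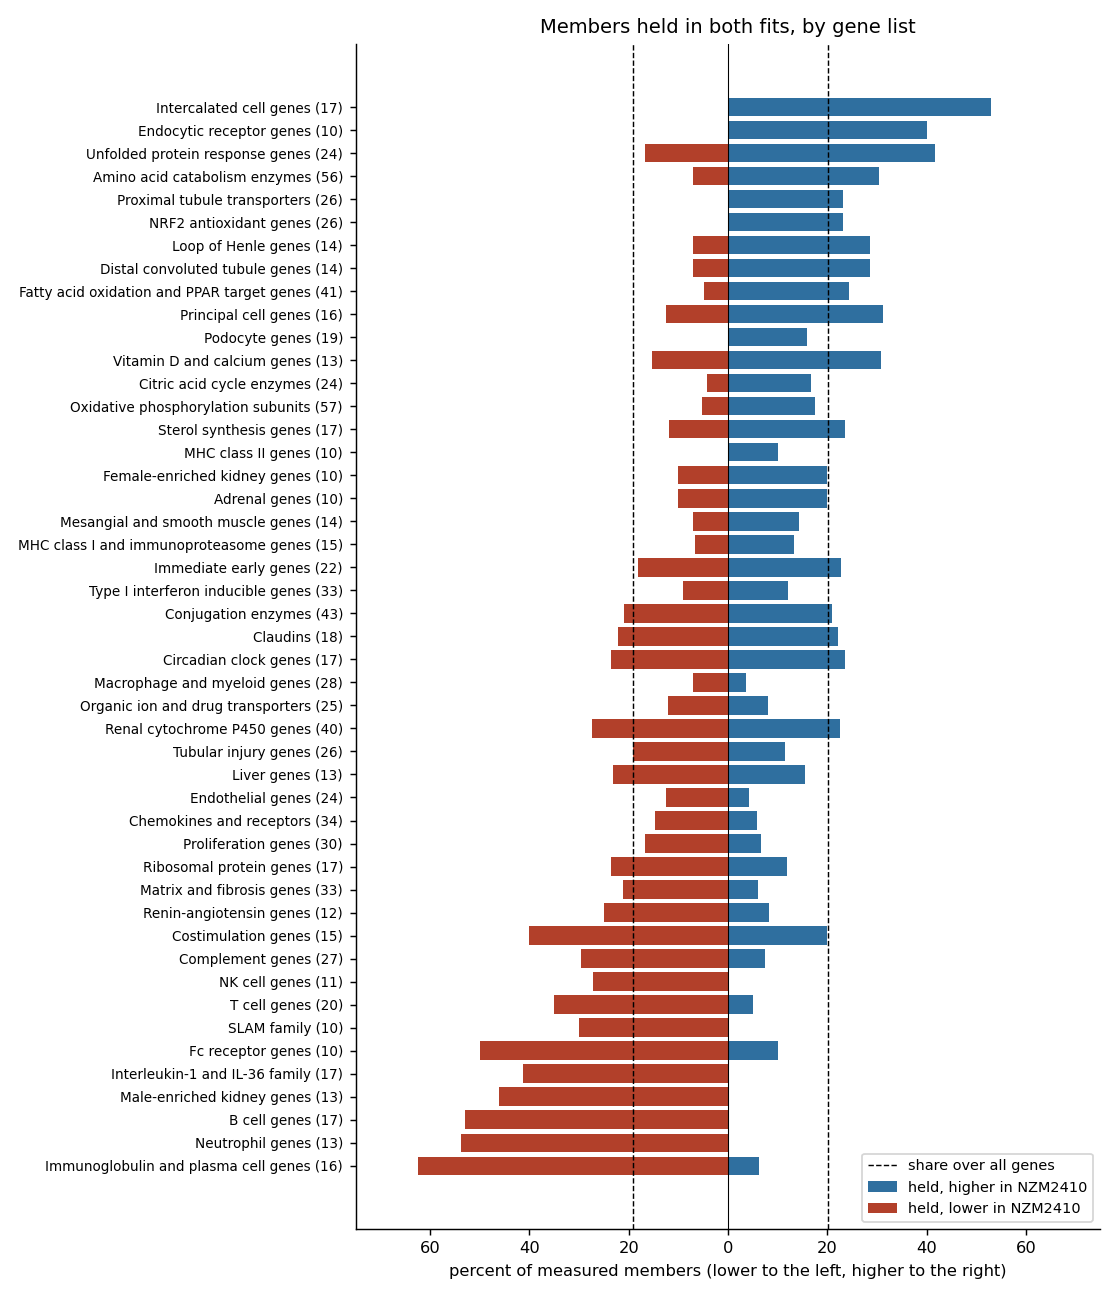
Percent of the measured members of each gene list (number in parentheses) that held and were higher (blue, right) or lower (red, left) in NZM2410 kidneys, for lists of 10 or more members. Dashed lines mark the share over all genes, 20.2% higher and 19.1% lower. Lower members make up 62.5% of immunoglobulin, 53.8% of neutrophil and 52.9% of B cell genes, and higher members 52.9% of intercalated cell genes.

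Transcripts of antibody-secreting cells gave the 3 lowest differences of the 15780 genes, in Igkc, Jchain and Iglv1. Of 16 measured immunoglobulin and plasma cell genes, 10 held lower and 1, Xbp1, higher (all genes, 19.1% lower and 20.2% higher), and the list median was -1.09 in deposited and -1.13 in quantile-normalized values, against 0.00 and 0.01 over all genes. For Igkc, the kappa light chain constant region, the TACI-Ig kidneys read 12.67, 11.63, 13.01, 11.06 and 12.33, and NZM2410 kidneys had a lowest of 6.64, a median of 7.66 and a highest of 9.41. Every NZM2410 kidney was below every TACI-Ig kidney and below the other NZB/W kidneys (11.40 to 14.22), and the difference was -4.37 (SE 0.48, adjusted p = 9.3e-06), a mean 20.7-fold higher level in TACI-Ig kidneys. For Jchain, which links IgA and IgM into polymers, the TACI-Ig values were 11.16, 10.84, 11.71, 9.78 and 11.70, and NZM2410 values had a lowest of 5.99, a median of 6.44 and a highest of 8.36. The groups did not overlap here either, with a difference of -4.22 (SE 0.45, adjusted p = 7.1e-06). Igha, the IgA heavy chain, read 11.25, 11.03, 11.92, 11.74 and 11.41 in TACI-Ig kidneys and 7.47 to 9.71 (median 7.75) in NZM2410 kidneys, a difference of -3.29 (SE 0.37, adjusted p = 1.1e-05). The highest NZM2410 values of these genes came from replicates 5 and 3, so the spread within NZM2410 was wide.

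Iglv1, a lambda variable segment, differed by -3.47 (SE 0.42, adjusted p = 1.9e-05). The IgG1 heavy chain Ighg1 differed by -1.59 (SE 0.41, adjusted p = 0.0044), with one TACI-Ig kidney at 6.19, inside the NZM2410 range of 5.93 to 6.32 (median 6.08). Ighm, the IgM heavy chain, did not pass: TACI-Ig kidneys read 9.55, 8.53, 10.30, 6.34 and 9.60, around the NZM2410 range of 7.52 to 8.86 (median 8.14), with a difference of -0.70 (SE 0.56, adjusted p = 0.297). Whether the classes differed from each other was not tested. These genes share sequence with their relatives, so reads of probes among them are uncertain, and immunoglobulin alleles of the strains were not compared. In whole kidney, fewer cells of a type and less RNA per cell cannot be told apart, for this and every list below.

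B cell genes were also lower in NZM2410 kidneys. Of 17 measured members 9 held lower (52.9%, against 19.1% of all genes) and 0 higher, with a median of -0.75 (-0.52 after quantile normalization). Of the 7 members that were not dim, 3 held lower. Pou2af1, a coactivator of immunoglobulin transcription, read 6.66, 4.70, 8.34, 4.79 and 6.54 in TACI-Ig kidneys against 3.37 to 3.91 (median 3.52) in NZM2410 kidneys, a difference of -2.64 (SE 0.51, adjusted p = 6.9e-04). TACI-Ig replicates 2 and 4 lay well below the other 3 for this gene, though still above all 6 NZM2410 kidneys. Fcmr, the Fc receptor for IgM, differed by -1.67 (SE 0.19, adjusted p = 1.4e-05), and Blk, a B cell Src-family kinase, by -1.19 (SE 0.10, adjusted p = 1.6e-06). Ms4a1, which encodes CD20, read 6.26, 4.72, 6.73, 4.84 and 6.59 and 4.32 to 4.85 (median 4.38), so the groups overlapped, and its difference of -1.37 (SE 0.34, adjusted p = 0.0034) was not held without TACI-Ig replicate 1, 3 or 5. Cd79b, part of the B cell receptor, passed in deposited values (-1.01 (SE 0.38, adjusted p = 0.037)) and missed the threshold after quantile normalization (adjusted p = 0.054).

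The targets of the therapies were measured in part. Tnfrsf13c, which encodes the BAFF receptor, read 6.63, 5.91, 6.81, 6.10 and 6.30 in TACI-Ig kidneys and had a lowest of 5.21, a median of 5.36 and a highest of 5.48 in NZM2410 kidneys. All 6 NZM2410 kidneys were below all 26 NZB/W kidneys, and the difference was -1.004 (SE 0.14, adjusted p = 5.2e-05). Tnfrsf17, which encodes BCMA, differed by -0.82 (SE 0.13, adjusted p = 1.8e-04), without overlap between the groups compared (5.16 to 5.80 and 4.42 to 4.98 (median 4.67)). Tnfsf13b, the BAFF ligand gene itself, ranged from 5.85 to 6.99 in TACI-Ig and 6.09 to 7.04 (median 6.31) in NZM2410 kidneys and differed by 0.07 (SE 0.21, adjusted p = 0.801). Thus both measured receptors held lower while the ligand did not pass. Lower members were 2 of the 3 measured (66.7%, against 19.1% of all genes), but both receptor genes were dim. The list median was -0.82 in deposited and -0.59 in quantile-normalized values. A transgene-derived receptor-Ig message, if the probes could read it, was not tested.

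Of 20 T cell genes, 7 held lower and 1, Cd4, higher, against 19.1% and 20.2% of all genes. The list median was -0.46 (-0.27 after quantile normalization). Of the 6 members that were not dim, 1 held lower and 1 higher. Cd3e, a chain of the T cell receptor complex, read 8.70, 7.81, 8.22, 8.003 and 8.59 in TACI-Ig kidneys and 6.94 to 7.48 (median 7.22) in NZM2410 kidneys, a difference of -1.05 (SE 0.15, adjusted p = 6.6e-05) without overlap. Another chain of the same complex, Cd3d, overlapped (5.50 to 6.996 and 5.86 to 6.50 (median 6.01)) and did not pass, at -0.29 (SE 0.25, adjusted p = 0.343). A further chain, Cd3g, went the other way (0.20), was not held and overlapped as well (4.36 to 6.30 and 4.92 to 7.10 (median 5.64)). Cd27, a TNF receptor of T and memory B cells, differed by -0.88 (SE 0.10, adjusted p = 1.3e-05). The CD8 chain gene Cd8b1 differed by -0.66 (SE 0.15, adjusted p = 0.0017) and Icos, an inducible costimulator, by -0.75 (SE 0.16, adjusted p = 0.0013). Cd8b1 was not held with the replicate number as a block or with the 4 NZM2410 kidneys of the mouse-name letters MP alone. Among 15 costimulation genes 6 held lower, against 19.1% of all genes, and 3 higher, close to the 20.2% of all genes. Only 6 of the 15 were not dim, of which 2 held lower and 1 higher. The lower costimulation genes included Pdcd1lg2, which encodes the PD-1 ligand PD-L2 (-1.29 (SE 0.13, adjusted p = 3.9e-06)), Cd40lg, which encodes CD154 (-0.90 (SE 0.10, adjusted p = 1.1e-05)), and Tnfrsf4, which encodes OX40 (-0.69 (SE 0.11, adjusted p = 1.7e-04)). Neither ligand of CTLA4Ig held. Cd80 was lower in deposited values (-0.50 (SE 0.07, adjusted p = 4.6e-05)) but not after quantile normalization (-0.10, adjusted p = 0.193), and Cd86 differed by 0.25 (SE 0.21, adjusted p = 0.324).

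Fc receptors join antibody to effector cells. Of 10 measured, 5 held lower and 1, the neonatal receptor gene Fcgrt, higher, against 19.1% and 20.2% of all genes. Of the 6 members that were not dim, 2 held lower and 1 higher. The activating receptor Fcgr4 read 8.40, 6.30, 8.16, 6.66 and 8.68 in TACI-Ig and 5.32 to 6.40 (median 5.88) in NZM2410 kidneys, a difference of -1.71 (SE 0.40, adjusted p = 0.0024), and its signalling partner Fcer1g, the shared gamma chain, differed by -1.16 (SE 0.30, adjusted p = 0.0044). For both genes TACI-Ig replicates 2 and 4 were the lowest of their group and close to or within the NZM2410 range. The B cell Fc receptor-like genes Fcrla (-1.05 (SE 0.07, adjusted p = 3.3e-07)) and Fcrl1 (-1.02 (SE 0.15, adjusted p = 9.1e-05)) did not overlap between the groups. The inhibitory receptor Fcgr2b passed in deposited values alone (0.29 (SE 0.09, adjusted p = 0.017)), and the high-affinity receptor Fcgr1 differed by 0.004 (SE 0.20, adjusted p = 0.988).

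Complement genes were lower more often than higher. Of 27 measured, 8 held lower (29.6%) and 2, C8b and Cr1l, higher (7.41%), against 19.1% and 20.2% of all genes. The list median was -0.28 (-0.23 after quantile normalization). Of the 17 members that were not dim, 4 held lower and 1 higher. Cfb, factor B of the alternative pathway, read 9.59, 9.97, 9.78, 9.75 and 9.64 in TACI-Ig kidneys and had a lowest of 6.58, a median of 6.88 and a highest of 7.15 in NZM2410 kidneys. The groups lay 7.32-fold apart on average without overlap, and the difference was -2.87 (SE 0.10, adjusted p = 1.7e-09). Its relative C2, of the classical and lectin pathways, read 8.52, 8.55, 8.24, 8.52 and 8.48 and had a lowest of 6.38, a median of 6.79 and a highest of 7.25, a difference of -1.68 (SE 0.13, adjusted p = 9.6e-07). Both genes were below all 26 NZB/W kidneys in each NZM2410 kidney, and they are neighbours in the RefSeq order. Masp1, a protease of the lectin pathway, differed by -1.27 (SE 0.10, adjusted p = 7.3e-07), and Vtn, which encodes the terminal pathway inhibitor vitronectin, by -0.66 (SE 0.09, adjusted p = 3.3e-05). The classical pathway recognition genes C1qa (-0.32 (SE 0.46, adjusted p = 0.567)) and C1qb (-0.31 (SE 0.49, adjusted p = 0.615)) did not pass, and their ranges overlapped (8.21 to 10.71 and 8.38 to 10.50 (median 9.03) for C1qa).

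**Figure D3:**
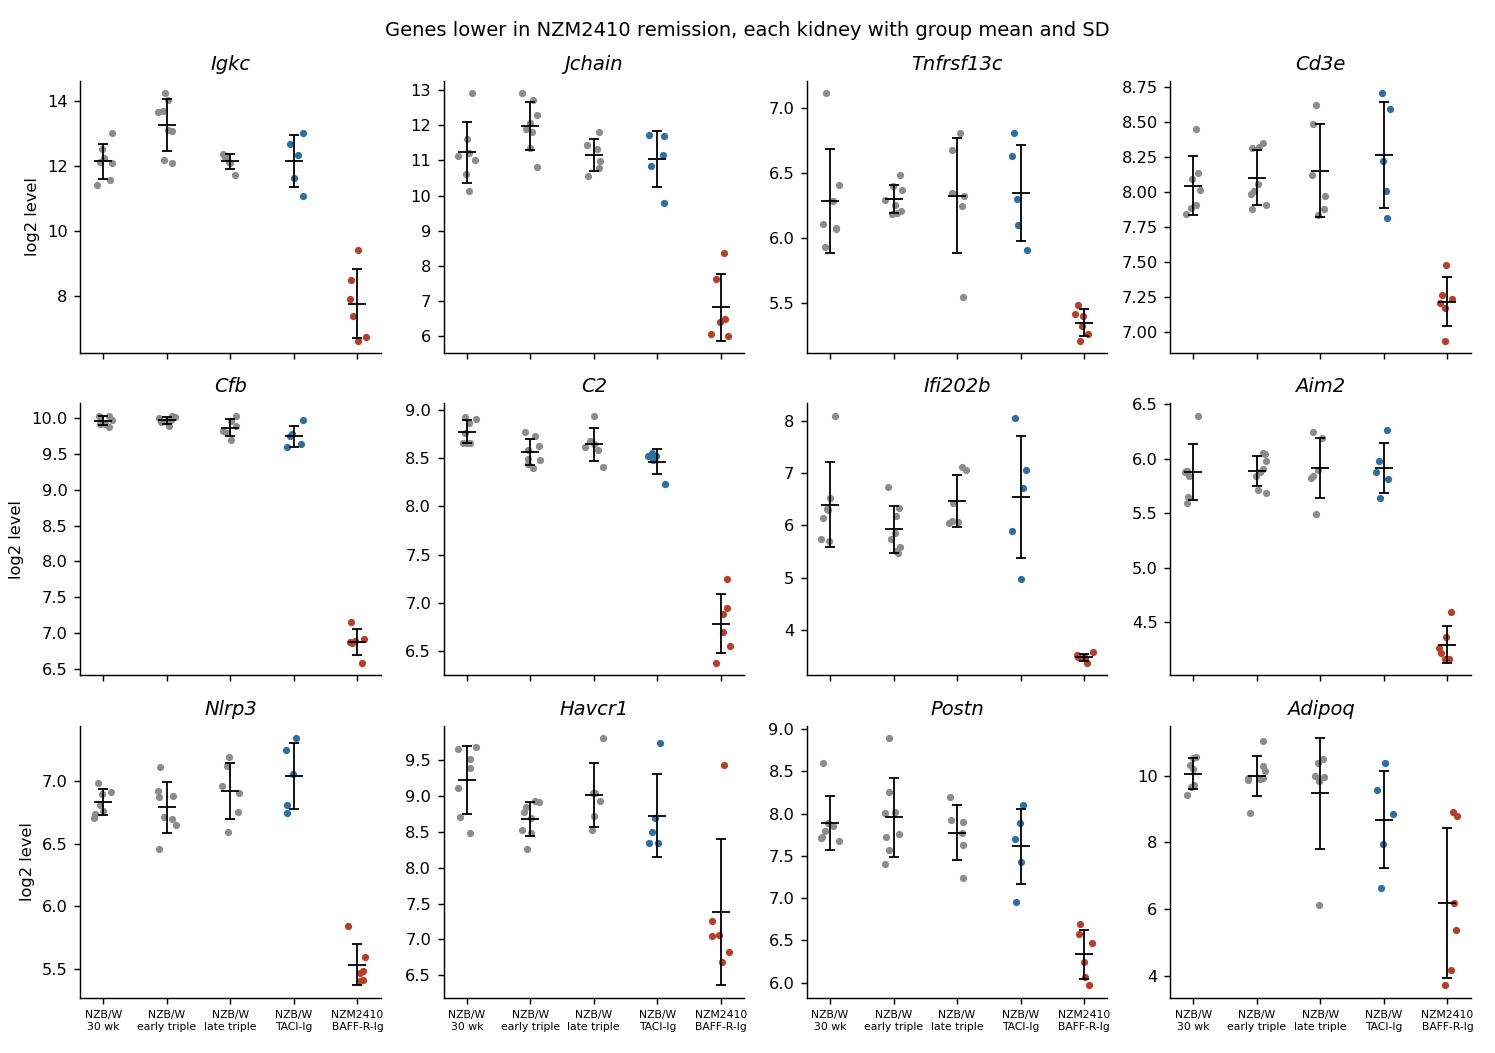
Log2 level (vertical axis) of 12 genes lower in NZM2410 remission in each of the 32 kidneys by group, with the group mean and SD in black, TACI-Ig kidneys in blue, NZM2410 kidneys in red and other NZB/W kidneys in grey. Cfb, C2, Aim2 and Nlrp3 separate the strains without overlap, whereas 1 NZM2410 kidney reaches the NZB/W range for Havcr1 (9.43) and Adipoq varies widely in both compared groups.

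The interferon-inducible p200 family, a cluster that includes DNA-sensing genes, had 2 of 6 members lower (33.3%) and 1 higher (16.7%). The shares of all genes were 19.1% and 20.2%, and only 1 of the 6 members was not dim. Ifi202b read 7.06, 4.97, 6.72, 5.90 and 8.07 in TACI-Ig kidneys and had a lowest of 3.36, a median of 3.47 and a highest of 3.56 in NZM2410 kidneys, a difference of -3.07 (SE 0.40, adjusted p = 3.1e-05). NZM2410 kidneys were tightly grouped near the bottom of the array range, while TACI-Ig kidneys spread widely. Aim2, the inflammasome sensor of DNA, read 5.98, 5.64, 5.88, 5.81 and 6.27 and 4.16 to 4.60 (median 4.24), a difference of -1.62 (SE 0.11, adjusted p = 3.7e-07). Ifi203 was higher in NZM2410 kidneys (6.61, 5.96, 6.52, 6.20 and 6.66 against 6.85 to 7.20 (median 7.09)), by 0.67 (SE 0.12, adjusted p = 4.7e-04). The other members did not pass: Ifi204 differed by -0.09 (SE 0.35, adjusted p = 0.838), Ifi207 by -0.75 (SE 0.33, adjusted p = 0.064) and Ifi209 by -0.21 (SE 0.36, adjusted p = 0.629). Sequence similarity within the family makes the assignment of signal to single members uncertain.

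Interferon-inducible genes outside that family were called in both directions. Of 33 measured, 4 held higher and 3 lower, below the share of all genes in each direction. Herc6 (0.77 (SE 0.11, adjusted p = 8.4e-05)) and Rtp4 (0.71 (SE 0.19, adjusted p = 0.0054)) were higher, whereas the oligoadenylate synthetase genes Oas1b (-0.83 (SE 0.09, adjusted p = 9.9e-06)) and Oas3 (-0.75 (SE 0.12, adjusted p = 1.2e-04)) were lower. Ifit1 (-0.11 (SE 0.46, adjusted p = 0.851)) and Ifit2 (0.36 (SE 0.18, adjusted p = 0.098)) did not pass.

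Of 10 MHC class II genes 1 held, namely H2-DMb1, a peptide-loading chain, which was higher by 1.11 (SE 0.30, adjusted p = 0.0066). The alpha and beta chains that present peptide did not pass: H2-Aa differed by 0.44 (SE 0.36, adjusted p = 0.313), H2-Ab1 by 0.25 (SE 0.33, adjusted p = 0.534) and H2-Eb1 by 0.13 (SE 0.34, adjusted p = 0.752). The invariant chain Cd74 differed by 0.30 (SE 0.34, adjusted p = 0.463) and the class II transactivator Ciita by 0.15 (SE 0.11, adjusted p = 0.233), which passed after quantile normalization alone (0.29, adjusted p = 0.027). H2-DMa (0.25 (SE 0.23, adjusted p = 0.372)), H2-DMb2 (0.28 (SE 0.29, adjusted p = 0.432)) and H2-Oa (-0.15 (SE 0.17, adjusted p = 0.463)) also did not pass, and H2-Ob passed in deposited values alone (-0.64 (SE 0.20, adjusted p = 0.013)). The list level ran from 7.33 to 8.62 in TACI-Ig kidneys and from 7.96 to 9.17 in NZM2410 kidneys, where replicate 3 was the highest. Strain haplotypes at this locus were not compared.

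Macrophage and myeloid genes overlapped between the groups. Of 28 measured, 1 held higher (3.57%) and 2 lower (7.14%), below the 20.2% and 19.1% of all genes. The list level ran from 6.90 to 8.50 in TACI-Ig and from 6.95 to 8.55 in NZM2410 kidneys. Cd68, a lysosomal protein of macrophages, differed by -0.17 (SE 0.34, adjusted p = 0.679), and Adgre1, a macrophage surface receptor, by -0.42 (SE 0.42, adjusted p = 0.404). Cx3cr1, the fractalkine receptor, was higher by 0.89 (SE 0.26, adjusted p = 0.0100), and by 0.63 (adjusted p = 6.7e-04) without NZM2410 replicate 3, which had the highest value (8.23). Itgax, which encodes CD11c, differed by -0.67 (SE 0.26, adjusted p = 0.037) and was not held in 8 of the 11 fits that left out a kidney.

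Neutrophil genes were lower in NZM2410 kidneys in 7 of 13 members (53.8%, against 19.1% of all genes), with 0 higher. The list median was -0.50 (-0.48 after quantile normalization). Of the 5 members that were not dim, 3 held lower. Cxcr2, the receptor for neutrophil-attracting chemokines, read 7.24, 7.03, 7.05, 7.38 and 7.45 and 5.61 to 6.60 (median 6.30), a difference of -0.97 (SE 0.15, adjusted p = 1.5e-04). The granule genes Mmp8 (-0.94 (SE 0.12, adjusted p = 2.1e-05)), Ngp (-0.93 (SE 0.12, adjusted p = 3.3e-05)) and Ltf (-0.80 (SE 0.10, adjusted p = 2.7e-05)) were lower in every NZM2410 kidney than in all NZB/W kidneys. The calgranulins, which define neutrophils at high levels, were not held: S100a8 differed by -0.50 (SE 0.23, adjusted p = 0.075) and S100a9 by -0.49 (SE 0.18, adjusted p = 0.035), with levels of 4.76 to 6.27 and 4.89 to 5.15 (median 4.96) for the former.

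The interleukin-1 and IL-36 family also gave lower calls, with 7 of 17 members lower (41.2%, against 19.1% of all genes) and 0 higher. Of the 9 members that were not dim, 3 held lower. For Nlrp3, the inflammasome sensor that matures IL-1, TACI-Ig kidneys read 7.34, 6.74, 6.81, 7.06 and 7.24 and NZM2410 kidneys had a lowest of 5.40, a median of 5.48 and a highest of 5.84. This gene was lower in each NZM2410 kidney than in all 26 NZB/W kidneys, with a difference of -1.50 (SE 0.12, adjusted p = 8.2e-07). Il1f6, the IL-36 alpha gene, read 7.16, 6.52, 6.41, 6.88 and 7.25 and 5.46 to 6.42 (median 5.86), so that 1 NZM2410 kidney reached the lowest TACI-Ig kidney, and differed by -0.96 (SE 0.18, adjusted p = 5.2e-04). Il1a (-0.80 (SE 0.12, adjusted p = 7.8e-05)) and the decoy receptor Il1r2 (-0.56 (SE 0.09, adjusted p = 1.1e-04)) were lower without overlap, and Il1b did not pass (-0.28 (SE 0.19, adjusted p = 0.212)).

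Of the genes that mark tubular injury, 5 of 26 held lower and 3 higher, close to the share of all genes for lower calls. Havcr1 read 8.34, 8.69, 8.35, 9.73 and 8.50 in TACI-Ig kidneys and 7.06, 6.83, 9.43, 6.69, 7.04 and 7.25 in the 6 NZM2410 kidneys. All NZM2410 kidneys other than replicate 3 were below every NZB/W kidney. The difference was -1.34 (SE 0.43, adjusted p = 0.017), and -1.75 (adjusted p = 5.6e-05) without NZM2410 replicate 3. With NZM2410 kidneys of the mouse-name letters MP alone, which include replicate 3, Havcr1 was not held. Lcn2, which encodes the injury marker NGAL, overlapped widely (7.47, 6.32, 8.33, 7.49 and 10.41 against 6.0001 to 10.14 (median 7.12)) and did not pass (-0.44 (SE 0.79, adjusted p = 0.651)). Fgb, the fibrinogen beta chain (0.85 (SE 0.18, adjusted p = 0.0012)), Myc (0.85 (SE 0.15, adjusted p = 2.8e-04)) and the tight junction gene Cldn1 (0.63 (SE 0.18, adjusted p = 0.0080)) were higher in NZM2410 kidneys, so the list held both directions. Cldn1 was not held without TACI-Ig replicate 1 or 3. Without NZM2410 replicate 3, 9 members were lower, and the count ranged from 2 to 9 over the 11 omissions of a kidney.

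Matrix genes were lower in 7 of 33 members (21.2%, close to the 19.1% of all genes) and higher in 2, with a median of -0.39 (-0.49 after quantile normalization). Postn, the matricellular protein periostin, read 8.10, 7.70, 6.95, 7.89 and 7.43 and 5.97 to 6.69 (median 6.36), a difference of -1.28 (SE 0.19, adjusted p = 9.2e-05) without overlap. Col15a1, a basement membrane collagen (-0.94 (SE 0.24, adjusted p = 0.0043)), the proteoglycan Bgn (-0.77 (SE 0.22, adjusted p = 0.0082)) and Col1a1, a chain of fibrillar collagen I (-0.83 (SE 0.29, adjusted p = 0.027)), were lower. Col1a1 was not held after 7 of the 11 omissions of a kidney. Col1a2, the other collagen I chain, did not pass (-0.77 (SE 0.37, adjusted p = 0.090)). NZM2410 replicate 3 had the highest matrix list level of its group (8.66, others 7.60 to 8.37), and without it 15 members were lower. The count was 11 without TACI-Ig replicate 2 or NZM2410 replicate 6, and 5 at the lowest.

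Transport genes that held were mostly higher in NZM2410 kidneys. Of 26 proximal tubule transporters, 6 held higher and 0 lower, close to the share of all genes for higher calls. Slc13a1, the sodium-sulfate cotransporter, read 11.57, 12.46, 12.14, 11.94 and 12.14 in TACI-Ig kidneys and 12.73 to 13.20 (median 12.98) in NZM2410 kidneys, a difference of 0.92 (SE 0.14, adjusted p = 8.6e-05). The glucose transporter Slc5a2 (0.84 (SE 0.24, adjusted p = 0.0085)) and the amino acid transporter Slc7a8 (0.96 (SE 0.30, adjusted p = 0.013)) overlapped between the groups. TACI-Ig replicate 2 lay in the NZM2410 range for both genes and replicate 4 for Slc7a8. Slc5a2 was not held after 7 and Slc7a8 after 6 of the 11 omissions of a kidney. Slc1a1, a glutamate transporter, differed by 0.71 (SE 0.13, adjusted p = 5.9e-04). Slc5a1, the other glucose transporter of this segment, did not pass (0.23 (SE 0.11, adjusted p = 0.095)). The number of higher members ranged from 3 to 11 when each kidney was left out, and was 11 without TACI-Ig replicate 2.

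In the thick ascending limb of the loop of Henle, 4 of 14 genes held higher (28.6%) and 1 lower (7.14%), against 20.2% and 19.1% of all genes. All 14 were not dim, and of all 10520 such genes 2593 held higher. The list median was 0.38 in deposited values and 0.08 after quantile normalization. Kcnj1, the apical potassium channel ROMK, read 9.96, 10.91, 10.60, 10.26 and 9.82 and 11.34 to 11.79 (median 11.59), a difference of 1.26 (SE 0.17, adjusted p = 4.0e-05), and was higher in each NZM2410 kidney than in all NZB/W kidneys. The same held for Slc12a1, the sodium-potassium-chloride cotransporter that bumetanide blocks (0.74 (SE 0.09, adjusted p = 1.4e-05)), and for the calcium-sensing receptor gene Casr (0.91 (SE 0.09, adjusted p = 5.9e-06)). Egf, made by the distal nephron, differed by 0.78 (SE 0.14, adjusted p = 4.4e-04). Scaling each array to one SD ended the calls of Slc12a1 (0.12, adjusted p = 0.207) and Egf (0.18, adjusted p = 0.244). Umod was higher by 0.35 (SE 0.07, adjusted p = 8.1e-04) in deposited values and not after quantile normalization (-0.06, adjusted p = 0.534).

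Intercalated cells secrete acid or bicarbonate in the collecting duct. Of 17 of their genes, 9 held higher and 0 lower, against 20.2% and 19.1% of all genes, and the median was 0.47 (0.32 after quantile normalization). All 17 were not dim, and of all 10520 such genes 2593 held higher and 1637 lower. The intercalated cell marker Slc4a1 was not held (-0.09) and overlapped (8.63 to 9.19 and 8.55 to 9.11 (median 8.71)). Atp6v1b1, a subunit of the apical proton pump, read 8.05, 8.73, 9.04, 8.85 and 7.75 in TACI-Ig kidneys and had a lowest of 9.42, a median of 9.54 and a highest of 9.98 in NZM2410 kidneys. The groups did not overlap, at a difference of 1.14 (SE 0.21, adjusted p = 4.1e-04), though early-remission NZB/W kidneys reached the NZM2410 range. Atp6v0d2, another subunit (0.82 (SE 0.10, adjusted p = 1.7e-05)), the ammonia transporter Rhbg (0.85 (SE 0.17, adjusted p = 7.5e-04)) and the carbonic anhydrase Car12 (0.81 (SE 0.16, adjusted p = 8.5e-04)) were higher as well. Between 8 and 11 members were higher whichever kidney was left out.

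Vitamin D metabolism held the highest difference of all genes. Cyp24a1, the hydroxylase that breaks down active vitamin D, read 7.02, 8.50, 8.91, 8.82 and 7.83 in TACI-Ig kidneys and had a lowest of 10.46, a median of 11.01 and a highest of 11.80 in NZM2410 kidneys. The groups lay 7.18-fold apart, at 2.84 (SE 0.33, adjusted p = 1.3e-05). The other NZB/W kidneys ran from 7.87 to 10.70, so the top of their range reached that of NZM2410 kidneys. Cyp27b1, which makes active vitamin D, went the other way (5.75, 6.82, 5.71, 7.61 and 6.07 against 4.96 to 5.87 (median 5.37)), by -0.97 (SE 0.31, adjusted p = 0.016), but was not held after 6 of the 11 omissions of a kidney. Cyp2r1, a 25-hydroxylase near the bottom of the array range, differed by -0.67 (SE 0.06, adjusted p = 2.0e-06) in deposited and -0.16 in quantile-normalized values, and was not held after 5 omissions. The receptor gene Vdr did not pass (0.09 (SE 0.13, adjusted p = 0.577)). In all, 4 of 13 vitamin D and calcium genes held higher (30.8%, against 20.2% of all genes). Lower members were 2 (15.4%, against 19.1%), and 0 without TACI-Ig replicate 4.

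**Figure D4:**
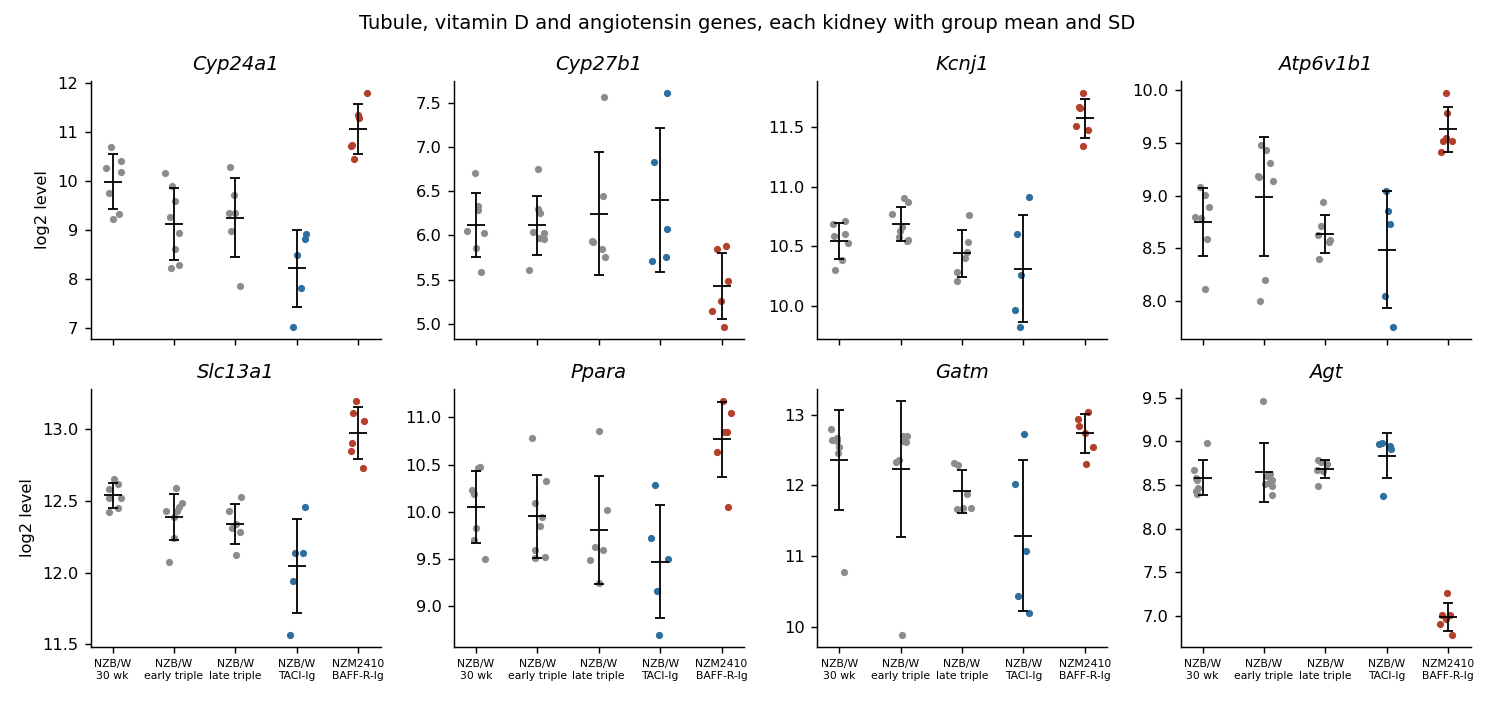
Log2 level (vertical axis) of 8 tubule, vitamin D and angiotensin genes in each of the 32 kidneys by group, with the group mean and SD in black, TACI-Ig kidneys in blue, NZM2410 kidneys in red and other NZB/W kidneys in grey. Kcnj1 and Slc13a1 are higher and Agt is lower in all 6 NZM2410 kidneys than in the 26 NZB/W kidneys, while Cyp24a1, Cyp27b1, Atp6v1b1, Ppara and Gatm overlap with them.

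Angiotensinogen was lower in NZM2410 kidneys. Agt read 8.98, 8.38, 8.97, 8.91 and 8.95 in TACI-Ig kidneys and had a lowest of 6.78, a median of 6.98 and a highest of 7.26 in NZM2410 kidneys, a difference of -1.85 (SE 0.12, adjusted p = 2.1e-07), with all 6 kidneys below all 26 NZB/W kidneys. Of 12 renin-angiotensin genes, 3 held lower and 1 higher, against 19.1% and 20.2% of all genes. Of the 9 members that were not dim, 2 held lower and 1 higher. The receptor gene Agtr1b (-0.67 (SE 0.07, adjusted p = 5.9e-06)) and Cma1, a mast cell chymase that can form angiotensin II (-0.58 (SE 0.12, adjusted p = 0.0013)), were lower. Mme, which encodes neprilysin, a peptidase of the proximal brush border, was higher (7.79, 9.12, 7.87, 8.44 and 7.90 against 9.22 to 9.58 (median 9.34)), by 1.16 (SE 0.20, adjusted p = 3.0e-04). Ace did not pass (-0.20 (SE 0.20, adjusted p = 0.410)).

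Cytochrome P450 genes moved in both directions, 9 of 40 higher (22.5%) and 11 lower (27.5%), against 20.2% and 19.1% of all genes. Cyp2c29, an epoxygenase, was lower (-1.53 (SE 0.12, adjusted p = 9.6e-07)) and adjacent to Cyp2c55 and Cyp2c39 in a run of 3 lower genes. Cyp2d12 (-1.16 (SE 0.32, adjusted p = 0.0067)) and Cyp4a12a, a fatty acid hydroxylase more abundant in males (-1.10 (SE 0.31, adjusted p = 0.0086)), were lower. The dioxin-inducible Cyp1b1 differed by -0.78 (SE 0.28, adjusted p = 0.027) and was not held without TACI-Ig replicate 4 or 5 or NZM2410 replicate 4. Its relative Cyp1a1 differed by 0.18 (SE 0.09, adjusted p = 0.101), which passed after quantile normalization alone (0.28, adjusted p = 0.025). Close copies of these genes share sequence, and their values are uncertain.

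Fatty acid oxidation and PPAR target genes held higher in 10 of 41 (24.4%, against 20.2% of all genes) and lower in 2, with a median of 0.30 (0.09 after quantile normalization). Ppara, the receptor that drives these genes, read 8.70, 10.28, 9.50, 9.72 and 9.16 and 10.05 to 11.18 (median 10.84), and differed by 1.29 (SE 0.25, adjusted p = 7.2e-04). Echs1 (0.90 (SE 0.16, adjusted p = 3.3e-04)) and Acox3 (0.88 (SE 0.21, adjusted p = 0.0030)), enzymes of the mitochondrial and peroxisomal pathways, were higher. Decr1, an auxiliary enzyme for unsaturated fatty acids, was lower (-1.22 (SE 0.11, adjusted p = 3.0e-06)), below all NZB/W kidneys. Cpt1a, the entry step for long-chain fatty acids, did not pass (0.10 (SE 0.14, adjusted p = 0.533)).

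Amino acid catabolism enzymes held higher in 17 of 56 (30.4%) and lower in 4 (7.14%), against 20.2% and 19.1% of all genes. The list median was 0.25 in deposited values and 0.04 after quantile normalization. Of its members 52 were not dim, and of all 10520 such genes 2593 held higher. Gatm, the first enzyme of creatine synthesis, read 10.20, 12.72, 11.06, 12.01 and 10.43 in TACI-Ig kidneys and 12.30 to 13.04 (median 12.79) in NZM2410 kidneys, a difference of 1.45 (SE 0.37, adjusted p = 0.0048). TACI-Ig replicates 2 and 4 were near or within the NZM2410 range, and Gatm was not held after 5 of the 11 omissions of a kidney. Oat, ornithine aminotransferase (0.80 (SE 0.12, adjusted p = 1.3e-04)), Pccb, of propionate breakdown (0.68 (SE 0.13, adjusted p = 7.1e-04)), and Shmt1, of serine and glycine exchange (0.68 (SE 0.14, adjusted p = 0.0012)), were higher, of which Oat did not pass after scaling each array to one SD (0.27, adjusted p = 0.0504). The tyrosine pathway genes Hgd (0.07 (SE 0.09, adjusted p = 0.515)) and Hpd (-0.07 (SE 0.26, adjusted p = 0.841)) did not pass. The count of higher members ran from 12 to 25 when each kidney was left out, and was 25 without TACI-Ig replicate 2.

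Genes of the unfolded protein response, which expands the folding capacity of the endoplasmic reticulum, held higher in 10 of 24 and lower in 4. These are 41.7% and 16.7%, against 20.2% and 19.1% of all genes. Pdia3, a disulfide isomerase, read 10.06, 10.30, 10.38, 10.45 and 10.20 and 10.94 to 11.31 (median 11.13), a difference of 0.86 (SE 0.08, adjusted p = 4.3e-06). Sdf2l1, a chaperone cofactor (0.93 (SE 0.20, adjusted p = 0.0016)), and Xbp1, a transcription factor of this response and of plasma cells (0.83 (SE 0.14, adjusted p = 2.3e-04)), were higher. Chac1, a glutathione-degrading enzyme of the ATF4 branch, was lower (-1.08 (SE 0.08, adjusted p = 7.3e-07)). The main luminal chaperones were not held: Hspa5 differed by 0.26 (SE 0.18, adjusted p = 0.231), and Hsp90b1 passed in deposited values alone (0.46 (SE 0.13, adjusted p = 0.0092)).

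Clock genes differed in both directions between the groups. In the circadian oscillator, ARNTL (BMAL1) pairs with CLOCK or NPAS2 and activates genes through the E-box CACGTG, among them the Per genes, and REV-ERB and ROR proteins act through TAGGTCA-type elements. Of 17 measured clock genes, 4 held higher and 4 lower (23.5% each, close to the 20.2% and 19.1% of all genes). Promoter windows from 250 bases before to 50 after each start site (RefSeq, GRCm38.p6) were at hand for 15 of the 17 genes, in 20 windows. CACGTG lay in 6 of the 20 windows, from 5 genes, and TAGGTCA, read on both strands, in 2, those of Arntl and Nfil3, against 7.15% and 2.61% of all 32851 windows. Shown here are the windows with a motif among the 4 genes higher and 4 lower, with the motif in capitals (TGACCTA is TAGGTCA on the other strand). The first pair belongs to genes that were higher in NZM2410 kidneys and the second to genes that were lower. The other genes with CACGTG were Cry1 (0.37), Tef (0.19, both windows) and Bhlhe41 (0.13). They had positive differences that were not held, and their windows are not shown. Among the 4 higher and 4 lower genes, CACGTG thus lay in windows of Per1 and Ciart alone, both lower, while Dbp, also lower, had none.
Arntl, chr7:113207261-113207560, plus strand: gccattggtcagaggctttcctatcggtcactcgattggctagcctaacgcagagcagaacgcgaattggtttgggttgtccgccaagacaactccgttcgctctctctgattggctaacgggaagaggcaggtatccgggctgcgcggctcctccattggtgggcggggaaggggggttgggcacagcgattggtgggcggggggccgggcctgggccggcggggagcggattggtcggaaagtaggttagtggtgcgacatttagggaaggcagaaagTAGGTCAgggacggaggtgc
Nfil3, chr13:52980990-52981289, minus strand: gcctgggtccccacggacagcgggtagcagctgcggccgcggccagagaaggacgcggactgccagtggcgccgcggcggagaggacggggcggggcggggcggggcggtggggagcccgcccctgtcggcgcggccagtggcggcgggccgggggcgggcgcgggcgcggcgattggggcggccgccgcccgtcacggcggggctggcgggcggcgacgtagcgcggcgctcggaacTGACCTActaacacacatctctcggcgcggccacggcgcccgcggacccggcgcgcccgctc
Per1, chr11:69098699-69098998, plus strand: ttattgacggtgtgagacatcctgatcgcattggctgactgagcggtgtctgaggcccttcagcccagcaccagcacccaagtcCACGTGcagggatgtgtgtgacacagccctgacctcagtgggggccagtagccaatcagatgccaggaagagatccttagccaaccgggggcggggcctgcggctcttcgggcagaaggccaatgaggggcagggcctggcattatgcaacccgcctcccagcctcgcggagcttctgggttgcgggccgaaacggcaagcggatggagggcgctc
Ciart, chr3:95882179-95882478, minus strand: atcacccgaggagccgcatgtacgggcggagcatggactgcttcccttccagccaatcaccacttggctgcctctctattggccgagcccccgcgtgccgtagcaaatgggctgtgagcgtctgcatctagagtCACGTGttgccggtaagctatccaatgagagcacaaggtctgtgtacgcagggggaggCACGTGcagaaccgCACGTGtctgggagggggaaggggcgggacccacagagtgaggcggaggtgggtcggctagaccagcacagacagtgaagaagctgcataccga

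Arntl read 6.76, 7.20, 7.66, 7.27 and 6.43 in TACI-Ig kidneys and 8.24, 9.20, 9.08, 6.60, 9.23 and 9.13 in NZM2410 kidneys, a difference of 1.52 (SE 0.42, adjusted p = 0.0076). In NZM2410 kidneys replicate 4 alone lay among the TACI-Ig values. Npas2 (1.23 (SE 0.18, adjusted p = 7.3e-05)) and Clock (0.92 (SE 0.10, adjusted p = 8.7e-06)) were higher in every NZM2410 kidney than in every TACI-Ig kidney, and Nfil3, a transcriptional repressor, differed by 0.95 (SE 0.33, adjusted p = 0.024). The opposite direction was seen for Dbp, a clock output factor whose window held neither motif, which read 9.60, 9.17, 8.25, 9.14 and 9.59 and 8.79, 6.84, 6.97, 9.87, 6.18 and 6.36, a difference of -1.65 (SE 0.59, adjusted p = 0.027). NZM2410 replicate 4 (9.87) was above the TACI-Ig range for Dbp, replicate 1 was within it, and the other 4 were below it. Per1 (-0.85 (SE 0.31, adjusted p = 0.032)) and Ciart (-0.55 (SE 0.16, adjusted p = 0.010)), chosen for their promoters after their values were seen, were lower, as was Cry2. A matching motif is a description of the window and shows no binding. Dbp, Nfil3 and Per1 were each not held after 6 or 7 of the 11 omissions of a kidney, and Arntl and Ciart, as well as Dbp and Nfil3, were not held with the 4 NZM2410 kidneys of the mouse-name letters MP alone. The other NZB/W kidneys spanned 5.75 to 9.07 for Arntl and 6.99 to 11.36 for Dbp, so both genes also varied widely within NZB/W. The time of day at which kidneys were taken is not given in the labels, and its part in these values was not tested.

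**Figure D5:**
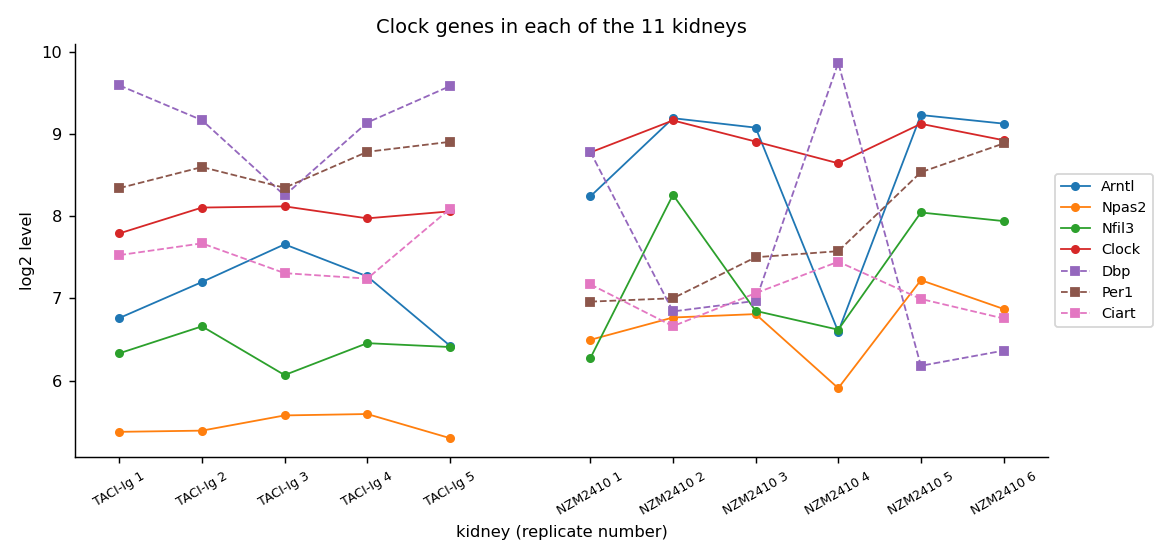
Log2 level (vertical axis) of 7 clock genes in each of the 5 TACI-Ig and 6 NZM2410 kidneys (horizontal axis), with lines joining the values of a gene within a group and circles for genes higher and squares for genes lower in NZM2410 kidneys. Arntl and Dbp cross in NZM2410 replicate 4, where Arntl was 6.60 and Dbp 9.87.

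After Cyp24a1, the highest difference past the fold and p limits was that of Slc29a4, a monoamine transporter. It read 5.14, 5.19, 5.10, 5.11 and 4.97 in TACI-Ig and 6.90 to 7.16 (median 6.93) in NZM2410 kidneys (1.88 (SE 0.07, adjusted p = 3.1e-09)). The proline transporter Slc6a7 differed by 1.79 (SE 0.09, adjusted p = 4.8e-08), the Hippo pathway kinase Lats1 by 1.67 (SE 0.14, adjusted p = 1.4e-06), the keratin Krt72 by 1.62 (SE 0.10, adjusted p = 2.3e-07) and the renal mitochondrial carrier Slc25a30 by 1.58 (SE 0.22, adjusted p = 6.1e-05). Differences of 1.49 to 1.56 were found for Prxl2c, the growth factor Pdgfd, the histone demethylase Kdm7a, the lipid kinase Pik3c2g, the matrix protein Coch and Gm8546. BC023105 (2.75, SE 0.52), named after its values were seen, lay just outside the limits, with an adjusted p of 0.0011 after quantile normalization. All 11 genes from Slc29a4 to Gm8546 were higher in each NZM2410 kidney than in the 26 NZB/W kidneys.

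Among lower genes outside the lists, Arl1, a small GTPase of the Golgi, read 9.88, 9.94, 9.89, 9.71 and 10.46 in TACI-Ig kidneys and had a lowest of 6.44, a median of 6.63 and a highest of 7.11 in NZM2410 kidneys, a difference of -3.31 (SE 0.14, adjusted p = 1.1e-08). Med18, a subunit of the Mediator complex, read 10.98, 10.69, 10.65, 10.50 and 11.07 and 8.03 to 8.42 (median 8.24) (-2.56 (SE 0.11, adjusted p = 1.1e-08)). The olfactory receptor gene Olfr64 differed by -2.53 (SE 0.11, adjusted p = 1.4e-08), Map3k7cl by -2.52 (SE 0.20, adjusted p = 9.7e-07) and Serpina1c, one of several near-identical antitrypsin genes, by -2.46 (SE 0.21, adjusted p = 1.8e-06). NZM2410 kidneys were below all NZB/W kidneys for each of the 12 lowest genes. Sequence differences between the strains under the array probes would alter such values and were not tested.

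Most of the differences past the fold and p limits also set NZM2410 apart from NZB/W kidneys with other or no therapy. Of the 777 higher genes, 765 (98.5%) had all 6 NZM2410 kidneys above the 5 TACI-Ig kidneys, and 687 (88.4%) above all 26 NZB/W kidneys. Of the 816 lower genes, 803 (98.4%) and 711 (87.1%) were below in the same way. Among all 15780 genes, the shares above and below the TACI-Ig kidneys were 16.1% and 22.4%, and those above and below all NZB/W kidneys were 9.85% and 16%. The 777 and 816 genes were chosen by their difference between the same 6 and 5 kidneys. Little overlap with the 5 therefore follows largely from that choice, and the 26 include the 5. The shares of all genes, not chosen in this way, are no test of the larger shares. Late triple therapy gave gene averages at most 0.0255 from those over the 12 kidneys at 30 weeks and after TACI-Ig, and the part of the authors' batch correction in this was not tested. Single kidneys after this therapy still set the lowest NZB/W value in 19.4% and the highest in 15.4% of genes. In the RefSeq order, 20.1% of the 1586 placed genes had a neighbour past the limits, against 19.1% of all placed genes. There were 21 runs of 3 or more. The longest, of 6 genes (Pilra, Pilrb1, Cyp3a13, Gjc3, Azgp1 and Zkscan1), held both directions, while the kallikreins Klk1b8, Klk1b1 and Klk1b11, and Fcmr with Il24 and Il20, ran lower together. Of 172 adjacent pairs, 96 had the same direction and 76 opposite directions.

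Genes of other tissues and of sex moved with the groups in part. Of 9 adipose genes, 5 held lower (55.6%, against 19.1% of all genes) and 0 higher. The lower count was 2 without TACI-Ig replicate 2 or 4 and 3 without NZM2410 replicate 3. The list level ran from 8.03 to 9.44 in TACI-Ig and from 6.84 to 8.62 in NZM2410 kidneys. Adipoq, the adipocyte hormone adiponectin, read 6.63, 10.38, 7.96, 9.56 and 8.84 and 4.16, 6.18, 3.71, 5.37, 8.92 and 8.80, a difference of -2.48 (SE 0.97, adjusted p = 0.041) that was not held after 8 of the 11 omissions of a kidney. Lep, which encodes leptin, was lower without overlap (-1.32 (SE 0.22, adjusted p = 2.1e-04)), and Car3 (-1.67 (SE 0.64, adjusted p = 0.038)) and Retn (-0.89 (SE 0.32, adjusted p = 0.027)) were lower with overlap and not held after 7 and 5 omissions. Of 7 pancreas genes 3 held lower (42.9%), at list levels of 6.53 to 7.37 and 6.13 to 6.36. Of the 3 members that were not dim, 0 held. The marker Cpa1 held lower (-0.79), while Cela1 was not held (0.37). The part of attached fat or pancreas in the lower genes above was not tested. Xist, transcribed from the inactive X chromosome, read 10.98, 10.67, 7.81, 10.84 and 11.01 in TACI-Ig kidneys and 9.83 to 10.72 (median 10.22) in NZM2410 kidneys (-0.04 (SE 0.48, adjusted p = 0.951)). TACI-Ig replicate 3 was low for Xist, while the Y-linked Eif2s3y (3.70 to 3.93 and 3.08 to 3.37 (median 3.27)) and Uty (4.17 to 4.39 and 4.06 to 4.24 (median 4.12)) were near the bottom of the array range in all 11 kidneys. Eif2s3y passed in deposited values alone (-0.54 (SE 0.07, adjusted p = 3.3e-05)) and Uty after quantile normalization alone (0.31, adjusted p = 0.0012). Male-enriched kidney genes held lower in 6 of 13 and higher in 0, against 19.1% and 20.2% of all genes. Of their 9 members that were not dim, 3 held lower. Female-enriched genes held higher in 2 of 10, close to the share of all genes, and lower in 1, below it.

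Array control probe sets also differed. The 18 hybridization control probe sets had a median difference of 0.52, 17 of them higher in NZM2410 arrays, and the 24 labelling controls one of -0.41, with 20 lower. The gap between 3' and 5' probe sets of beta-actin, a measure of RNA integrity, ran from 0.66 to 1.50 in TACI-Ig kidneys and from 0.78 to 1.07 in NZM2410 kidneys. The same gap for Gapdh ran from -0.057 to 0.42 in TACI-Ig and from -0.20 to -0.11 in NZM2410 kidneys, without overlap, so this sign of RNA quality moved with the groups. The part of these technical differences in the results above was not tested.

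Further lists are given by counts alone, beside the 20.2% of all genes that held higher and the 19.1% that held lower. Members held higher in 4 of 10 endocytic receptor genes (40%), with 0 lower, and in 5 of 16 principal cell genes (31.2%), with 2 lower. The 6 of 26 NRF2 antioxidant genes held higher (23.1%, 0 lower) were close to the share of all genes, and the 10 of 57 oxidative phosphorylation subunits (17.5%, 3 lower) were below it. Podocyte genes held higher in 3 of 19 and lower in 0, and endothelial genes higher in 1 of 24 and lower in 3, all below those shares. Lower members made up 3 of 11 NK cell genes (27.3%) and 3 of 10 of the SLAM family (30.0%), with 0 higher in both. Among chemokines and their receptors (5 of 34, 14.7%) and proliferation genes (5 of 30, 16.7%) lower calls were below the share of all genes, and 2 members of each were higher. Conjugation enzymes (9 higher and 9 lower of 43) and claudins (4 and 4 of 18) were close to it in both directions.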

How the data were processed

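Kidney RNA had been hybridized to Affymetrix arrays. The authors deposited log2 RMA values, normalized and batch-corrected over all arrays, with 1 probe set per gene. The batches and the RMA version are not given in the sources used here. Of 16539 probe sets, 15780 named genes were tested, and 64 controls and 695 unnamed probe sets were left out. Symbols of 15752 genes matched RefSeq (GRCm38.p6). Groups came from the sample titles. Nothing beyond separate mouse names says how replicates were taken, so p-values measure the spread between these samples. The number of arrays limits the precision.

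The 6 NZM2410 and 5 TACI-Ig kidneys were compared in R 4.3.3 by limma (version 3.58.1; moderated, two-sided, Benjamini-Hochberg over 15780 genes, threshold 0.05), on deposited values and after quantile normalization. Every adjusted p comes from limma. The stricter limits were an adjusted p of 0.001 and a fold of 1.4 or 0.7 in both. Code was tested on simulated data. Lists are described by counts and medians, without a test. Named genes were the 12 highest and 12 lowest past those limits, up to 4 held members and the first 2 measured members of each of 27 described lists, every measured member of the BAFF-APRIL, p200, MHC class II and Y-linked or Xist lists, and Lcn2, Havcr1 and Il1f6. Genes named outside this rule were chosen after their values were seen. The members and lists were chosen with earlier results of these data known. Alternatives covered scaling, dim genes, weights, the variance prior, blocks and omitted kidneys. Tables and figures used Python 3.11.15 with pandas 2.3.3.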

Additional observations from a re-analysis of the deposited data

Results flagged for a closer look

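Of 424 groups of values examined (53 lists and 159 genes in both groups), 31 held a kidney far from the rest of its group by Dixon's test at the 95% level, and chance alone gives about 1 in 20.

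NZM2410 replicate 3 accounted for 5 lists and 9 genes. Its mean level was 9.17 for MHC class II genes (others 7.96 to 8.41), 9.32 for MHC class I and immunoproteasome genes (8.58 to 8.84) and 6.32 for proliferation genes (5.82 to 5.97). It was low for endocytic receptor genes, at 10.59 (10.81 to 10.87), and for female-enriched kidney genes, at 10.60 (11.01 to 11.08). Havcr1 was 9.43 in this kidney (6.69 to 7.25), Cx3cr1 8.23 (6.46 to 6.79), Itgax 6.88 (6.15 to 6.38), H2-DMa 9.07 (7.86 to 8.21), H2-DMb2 8.11 (6.40 to 6.86) and H2-Ob 5.05 (4.40 to 4.63). Slc1a1 was 10.49 (10.73 to 10.85), Ace 8.85 (9.41 to 9.69) and Echs1 11.63 (11.86 to 12.003).

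Among the other NZM2410 kidneys, replicate 2 had Arl1 at 7.11 (6.44 to 6.65), Cd27 at 4.02 (4.16 to 4.23), Vtn at 4.54 (4.83 to 4.98) and Il1b at 6.44 (6.88 to 7.05). Replicate 4 had Slc6a7 at 7.47 (7.12 to 7.23), Cd40lg at 6.29 (5.84 to 6.01) and Hsp90b1 at 11.51 (12.002 to 12.16), and replicate 6 had Ms4a1 at 4.85 (4.32 to 4.47).

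In the TACI-Ig group, replicate 3 was low for Xist, at 7.81 (10.67 to 11.01), and so for the mean of Y-linked and Xist genes, at 5.35 (6.24 to 6.38), and had C2 at 8.24 (8.48 to 8.55). Replicate 4 was high for immediate early genes, at 8.37 (7.51 to 7.71), and for Havcr1, at 9.73 (8.34 to 8.69). Replicate 1 was high for pancreas genes, at 7.37 (6.53 to 6.62). Replicate 2 had Prxl2c at 7.48 (6.58 to 6.82) and Agt at 8.38 (8.91 to 8.98), and replicate 5 had Ifi207 at 6.41 (4.54 to 4.85).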

How the results depend on the processing

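Scaling each array to one SD gave 2880 genes higher in place of 4513. Leaving out the dimmest 33.3% of genes gave, by construction, 1558 lower calls, 1554 lower held genes and 404 lower genes past the fold and p limits. With the replicate number as a block, 265 higher and 411 lower genes passed those limits, and with the 4 NZM2410 kidneys of the letters MP alone 430 higher genes did. Same-numbered kidneys deviated together by correlations of -0.106 to 0.129, so the numbers do not pair the samples. All 1593 genes past the limits remained held in all of these alternatives where they were tested (1592 in the joint fit over 5 groups). Leaving out each kidney gave 4167 to 4523 higher and 4557 to 5042 lower calls, 2847 to 3377 and 2744 to 3159 held genes, and 612 to 984 and 708 to 893 past the limits. Of 159 named genes 115 held, and 99 of these held whichever kidney was left out. In at least 1 of the other alternatives 22 of them were not held, namely 14 with MP kidneys alone, 7 each with array weights, with the intensity trend and robust prior, and with the replicate block, and 5 after SD scaling.

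Of the 6203 held genes, 19 changed sign when each array was scaled to one SD and 0 in the other alternatives. The following differences of named genes changed sign, and none of these genes held; the cause was not tested. Quantile normalization and SD scaling, in this order, gave -0.060 and -0.32 for Umod, -0.045 and -0.20 for Vdr, -0.21 and -0.44 for Hgd, -0.073 and -0.27 for Cpt1a, -0.0052 and -0.23 for Hspa5, -0.080 and -0.29 for H2-Eb1, 0.31 and 0.052 for Uty and 0.23 and 0.053 for Ifi204. SD scaling alone gave -0.10 for H2-Ab1, -0.032 for Slc5a1, -0.025 for Hsp90b1 and -0.16 for Cd74. Fcgr1 was -0.027 after quantile normalization, -0.062 after median centring, -0.0050 after SD scaling, -0.019 with array weights, -0.0015 with the replicate block and -0.017 with MP kidneys alone. Tnfsf13b was -0.011 with the replicate block and -0.012 with MP kidneys alone. Xist was 0.25 with array weights, 0.039 with the replicate block, 0.045 with name letters as a random block and 0.14 with MP kidneys alone. Leaving out each kidney gave ranges of -0.065 to 0.22 for Tnfsf13b, -0.13 to 0.15 for Fcgr1, -0.63 to 0.12 for Ifit1, -0.39 to 0.039 for Cd68, -0.95 to 0.17 for Lcn2, -0.016 to 0.18 for Vdr, -0.25 to 0.12 for Hpd, -0.65 to 0.15 for Xist, -0.32 to 0.27 for Ifi204, -0.47 to 0.062 for Ifi209, -0.13 to 0.32 for H2-Eb1 and -0.0075 to 0.45 for Cd74.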
